A study of Equus caballus with 68 samples.

Results

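TNFAIP6 and the genes that make, cut and bind hyaluronan were followed in equine bone marrow mononuclear cells (BMNC) cultured in normal synovial fluid (SF) or in inflamed synovial fluid (ISF). The genes of interest were named by symbol: TNFAIP6, its partner PTX3, the synthases HAS1, HAS2 and HAS3, the hyaluronidases HYAL1, HYAL2 and HYAL3, and the receptors LYVE1 and STAB1. Of these 10 genes, 6 were matched by symbol among the 30371 rows of the expression table, and PTX3, HAS1, HYAL1 and HYAL2 are not analysed here. TNFAIP6 was chosen by its difference in GeTMM between ISF and SF at 6 days, so that its values at 6 days are given as a description with no test. The other genes were selected for their function in hyaluronan turnover.

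Hyaluronan is the long, unsulfated glycosaminoglycan that gives synovial fluid its viscosity. It is spun out at the plasma membrane by HAS enzymes, cut into shorter chains by hyaluronidases, and taken up or sensed through receptors on macrophages, fibroblasts and endothelium. TNFAIP6 encodes TSG-6, a secreted protein induced by TNF and IL-1 that binds hyaluronan and moves the heavy chains of inter-alpha-inhibitor onto it, and it is found in the fluid of inflamed joints.

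The libraries came from 8 Thoroughbred horses aged 3 to 9 years, 2 females and 6 geldings. BMNC from the sternum, a mixture of marrow cells enriched on a density gradient, were sequenced before culture (0 hours, 8 libraries) and after 48 hours, 96 hours, 6 days and 10 days in undiluted fluid of the same horse. SF was taken from healthy middle carpal joints, and ISF from radiocarpal joints of the same animals in which synovitis had been induced with lipopolysaccharide, with the cells of the fluid removed before use. Each fluid was represented by 8 libraries at 96 hours and again at 6 days, and by 7 libraries at 48 hours and at 10 days. The horse named Moon had no library at 48 hours, and the horse named Flash none at 10 days. Each library was 1 well of 1 horse, and there were 68 in all.

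Values are GeTMM, a read count per kilobase of gene scaled between libraries, and can be compared between genes. Whole reads recovered from these values put the depth of the libraries between 15.7 M and 36.0 M reads assigned to genes, with a median of 22.3 M. As judged by the average log2(GeTMM + 1) of marker lists, the cells before culture carried high neutrophil precursor transcripts (mean 10.2) beside erythroid (5.64), T cell (5.29) and macrophage transcripts (3.98). The macrophage list, with all 7 of its genes measured, ranged from 10.5 to 11.3 in the ISF libraries of 6 days and from 10.3 to 10.8 in their SF counterparts. These were mixed cells measured in bulk, so that a change in the number of cells of a type and a change in RNA per cell cannot be told apart. Some libraries stood apart. Over 200 genes that differed between horses, the ISF libraries labelled Dealings and Dreamer at 96 hours each correlated best with the other horse of this pair (r = 0.95 and 0.91) and not with the horse on their label (r = -0.27 and -0.19). The SF library of Moon at 6 days had the lowest median ratio factor, a measure of its scale against the other libraries, of all 68 (0.873). Its GeTMM values also had the highest sum, 2.32e+06, where the next highest library summed to 1.46e+06. The tests were also run without these libraries, whereas levels, marker averages and shares between horses are given for all libraries as labelled.

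TNFAIP6 was present in every library and was the gene of this group that separated the fluids. Before culture its level was 9.04 GeTMM in the lowest, 20.03 in the median and 41.9 in the highest of 8 horses. At 48 hours the ISF cultures ranged from 14.0 to 89.2 GeTMM with a median of 31.8, and the SF cultures ranged from 5.42 to 21.4 GeTMM with a median of 8.66. The groups overlapped at this time, and TNFAIP6 was higher in ISF in 6 of 7 horses, with RimRun as the exception. The log2 fold change was 1.49 (SE 0.41, FDR = 0.0389 by limma over all genes tested). That call did not hold in 7 of 16 alternatives, among them the fits without Catnip (FDR = 0.173), without Dealings (0.127), without Dreamer (0.147), without Flash (0.0619) and without Lurie (0.1499). Of the 5 genes of interest that could be tested, 1 was called higher in ISF at this time against 0.872% of all genes, and 0 were called lower against 0.81%. At 48 hours, 96 hours and 10 days TNFAIP6 was the 1 gene of these 5 with an unadjusted limma p under 0.05, and voom on recovered reads called 0 of 5 at 48 hours and TNFAIP6 at the later times.

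At 96 hours the ISF cultures held 24.4 GeTMM of TNFAIP6 in the lowest, 106 in the median and 173 in the highest library. The SF cultures held 5.23, 6.85 and 15.9 GeTMM in the same order. Every ISF library was above every SF library, so that the direction was the same in 8 of 8 horses however the libraries labelled Dealings and Dreamer are paired. The log2 fold change was 3.31 (SE 0.38, FDR = 5.63e-09), a ratio of the mean levels of 12.2, and the call was kept in all 16 alternatives. TNFAIP6 was the 1 gene of 5 called higher in ISF against 6.16% of all genes, and 0 of 5 were called lower against 4.3%.

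At 6 days, the time point that selected it, TNFAIP6 reached its highest levels. The ISF cultures ranged from 167 GeTMM in RimRun to 372 in Catnip with a median of 208, and the SF cultures from 4.95 in Dreamer to 18.1 in Lurie with a median of 12.5. The groups did not overlap, and TNFAIP6 was higher in ISF in 8 of 8 horses. The log2 fold change was 4.10 (SE 0.38), for which no test is given. Other cell markers differed between the fluids at that time: the T cell list averaged 2.59 in ISF and 4.399 in SF, with 5 genes, and the neutrophil precursor list 4.48 and 7.07, with 6 genes. At 10 days these averages were 1.40 and 4.09 for T cells and 1.91 and 3.98 for neutrophil precursors. Their part in the TNFAIP6 level was not tested.

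**Figure D1:**
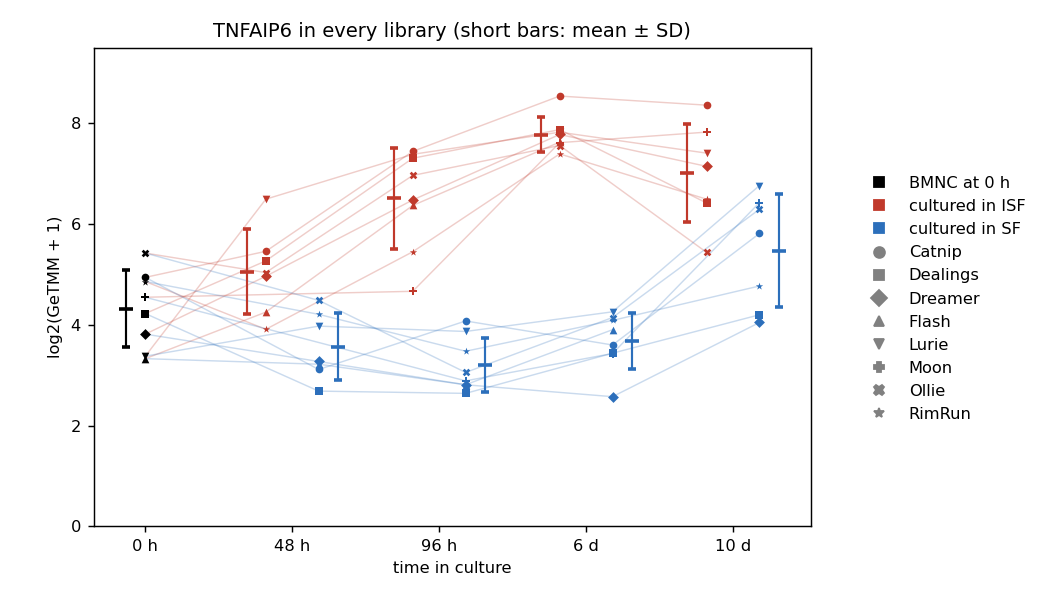
TNFAIP6 as log2(GeTMM + 1) on the vertical axis against time in culture on the horizontal axis, with 1 point per library, a marker shape per horse, thin lines joining the libraries of a horse, and short bars for the mean and SD of a group. ISF (red) and SF (blue) do not overlap at 96 hours and 6 days, and at 10 days the SF points have moved up to between 15.5 and 108 GeTMM.

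At 10 days the fluids overlapped again. ISF cultures ranged from 42.4 to 328 GeTMM with a median of 141, and SF cultures from 15.5 to 108 GeTMM with a median of 55.2. TNFAIP6 was higher in ISF in 6 of 7 horses, while Ollie had 42.4 GeTMM in ISF and 77.5 in SF. The log2 fold change of 1.54 (SE 0.41, FDR = 0.00416) was called in all 16 alternatives, with FDR values from 0.00096 to 0.0495. Again 1 of 5 genes of interest was called higher in ISF, against 9.95% of all genes, and 0 of 5 lower, against 10.8%.

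Followed along the cultures, TNFAIP6 rose in ISF and stayed low in SF until late. From 0 to 48 hours the log2 fold change was 0.74 in ISF (SE 0.40, FDR = 0.111) and -0.75 in SF (SE 0.40, FDR = 0.118), and neither was called. In ISF it then rose between 48 and 96 hours in 7 of 7 horses (log2 fold change 1.45, SE 0.40, FDR = 0.00539), a call kept in all 16 alternatives. In SF the value for the same interval was -0.36 (SE 0.40, FDR = 0.553). The plot of TNFAIP6 by library shows a late rise in SF. This was tested as the change from 96 hours to 10 days, a comparison added after that plot was seen. The 6-day means do not enter this change, but the 6-day libraries stayed in the fit that gave its SE and FDR. The change was 2.27 on the log2 scale in SF (SE 0.40, FDR = 2.33e-05, higher in 7 of 7 horses, kept in all 16 alternatives) against 0.51 in ISF (SE 0.40, FDR = 0.353, higher in 5 of 7 horses). For that pair of intervals, 1 of 5 genes of interest was called in SF against 16% of all genes and 0 of 5 in ISF against 32.4%, where limma gave no unadjusted p under 0.05 and voom no call.

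Whether the difference between fluids itself changed with time was tested as an interaction. It widened by 1.82 on the log2 scale from 48 to 96 hours (SE 0.56), with an FDR of 0.483 that did not pass. From 96 hours to 10 days it narrowed, with an interaction of -1.77 (SE 0.56, FDR = 0.0972), which was called with the horse as a block (FDR = 0.0357) and without Moon (0.0431) but not in the other 14 alternatives. This last interaction was also added after the data were seen, and 1% of all genes were called in it.

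The 9 groups, ordered by mean TNFAIP6, ran from SF at 96 hours (8.82 ± 3.98 GeTMM, SD, n = 8) through SF at 48 hours (11.9 ± 5.95, n = 7), SF at 6 days (12.6 ± 4.43, n = 8), BMNC before culture (21.4 ± 11.4, n = 8), ISF at 48 hours (37.7 ± 24.9, n = 7), SF at 10 days (54.97 ± 36.5, n = 7), ISF at 96 hours (107 ± 56.9, n = 8) and ISF at 10 days (154 ± 97.8, n = 7) to ISF at 6 days (225 ± 63.3, n = 8). Neighbouring groups in this order overlapped in every case. Fibroblast transcripts were present late in some of the same cultures. The list of COL1A1, COL1A2, COL3A1, DCN and LUM averaged 0.104 to 9.39 in the SF libraries of 10 days and 0 to 3.69 in the ISF libraries of 6 days. At 10 days in SF, Lurie had both the highest TNFAIP6 (108 GeTMM) and the highest list value (9.39), whereas Moon had 85.1 GeTMM of TNFAIP6 at the lowest list value (0.104). What part these transcripts had in the TNFAIP6 level was not tested.

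Across all 68 libraries, the 5 named genes whose log2(GeTMM + 1) followed TNFAIP6 most closely were B4GALT6, a galactosyltransferase of glycosphingolipid synthesis (Pearson r = 0.92), ITGA5, the alpha chain of the fibronectin receptor (0.89), KIFC3, a kinesin motor (0.88), NPTX1, a neuronal pentraxin (0.88), and TNFSF9, the ligand of the costimulatory receptor 4-1BB (0.86). They were taken from 9626 named genes with a mean of at least 5 GeTMM in 1 group. The libraries share horses, fluids and times, so these coefficients are a description of likeness. The mean of NPTX1 was 3.28 GeTMM in SF and 112 in ISF at 96 hours, and 11.2 and 186 GeTMM at 6 days. None of the other genes of interest followed TNFAIP6 as closely: r was 0.34 for LYVE1, 0.30 for STAB1, -0.06 for HAS3 and -0.25 for HYAL3.

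Of the hyaluronan synthases, HAS2 was near the floor of detection and HAS3 was low but measured in every library. HAS2, the main synthase of fibroblasts, had no read in any of the 8 libraries before culture, where 3 reads would have been worth 0.0533 to 0.101 GeTMM. Over the series 37 of 68 libraries had 0 reads, 18 had 1 to 3 reads and 13 had more, 9 of these in SF and 4 in ISF. It reached 0.5 GeTMM in 5 libraries, too few to enter the tests.

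The HAS2 reads sat in single SF cultures. At 6 days Flash had 202 reads (3.95 GeTMM) and Lurie 96 (2.17 GeTMM), while the other 6 SF libraries had 0 to 7 reads. At 10 days Dreamer had 74 reads (1.64 GeTMM), Lurie 48 (1.22) and RimRun 19 (0.5004). No ISF library exceeded the 11 reads of the library labelled Dealings at 96 hours (0.237 GeTMM). The same SF cultures had fibroblast list averages at or above the group median: 2.80 in Flash and 4.92 in Lurie at 6 days, and 6.53 in Dreamer, 9.39 in Lurie and 2.59 in RimRun at 10 days, against medians of 0.893 and 2.59 in those groups. Dealings, with list averages of 3.54 at 6 days and 4.52 at 10 days in SF, had 7 reads and 1 read of HAS2. Whether fibroblasts in the wells carried the HAS2 reads was not tested.

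HAS3, the synthase that makes shorter chains, was measured in every library at about the same low level. Group medians lay between 1.05 GeTMM before culture and 1.55 GeTMM in ISF at 96 hours. It was lower in ISF than in SF at 6 days in 6 of 8 horses, with a median of 1.32 against 1.48 GeTMM and a log2 fold change of -0.31 (SE 0.13, FDR = 0.0639). The SF library of Moon held 6.44 GeTMM, the next highest SF library 1.91. This difference rested on that library: without it the log2 fold change was -0.10 (FDR = 0.373), and without Moon altogether -0.11 (FDR = 0.376). Without Flash the FDR was 0.0482, and no other alternative passed. The other log2 fold changes of HAS3 were 0.16 (SE 0.14, FDR = 0.653) after 48 hours, 0.20 (SE 0.13, FDR = 0.367) after 96 hours and -0.14 (SE 0.14, FDR = 0.537) after 10 days. From 0 to 48 hours in ISF HAS3 moved by 0.24 (SE 0.13, FDR = 0.132). This passed once the 6-day SF library of Moon was left out (FDR = 0.0181), without Moon (0.0329) and with the groups compared alone (0.0111).

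HYAL3, a member of the hyaluronidase family whose own activity on hyaluronan is weak, fell on entering culture in either fluid. Before culture it ranged from 64.9 to 102 GeTMM with a median of 79.5. After 48 hours it ranged from 13.3 to 33.3 GeTMM with a median of 23.8 in ISF and from 16.9 to 45.1 GeTMM with a median of 31.9 in SF. No cultured library reached the lowest library of 0 hours, and the level fell in 7 of 7 horses in each fluid. The log2 fold changes were -1.75 in ISF (SE 0.18, FDR = 7.05e-13) and -1.43 in SF (SE 0.18, FDR = 6.42e-10), called in all 16 alternatives. Thereafter group medians stayed between 19.6 and 26.1 GeTMM and no later interval was called.

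Between the fluids HYAL3 tended to sit lower in ISF without passing the test. At 6 days it ranged from 16.9 to 23.6 GeTMM with a median of 19.6 in ISF and from 19.6 to 37.1 GeTMM with a median of 23.2 in SF, and it was lower in ISF in 8 of 8 horses. The log2 fold change was -0.34 (SE 0.17, FDR = 0.125), and with the horse as a block the FDR was 0.0376. At the other times the log2 fold changes were -0.32 (SE 0.18, FDR = 0.446) at 48 hours, -0.28 (SE 0.17, FDR = 0.333) at 96 hours and -0.08 (SE 0.18, FDR = 0.827) at 10 days. The gene length behind the HYAL3 values was 501 bases, so that they rest on 77 to 1062 reads per library. Whether another gene overlaps it in the build of these files was not examined.

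**Figure D2:**
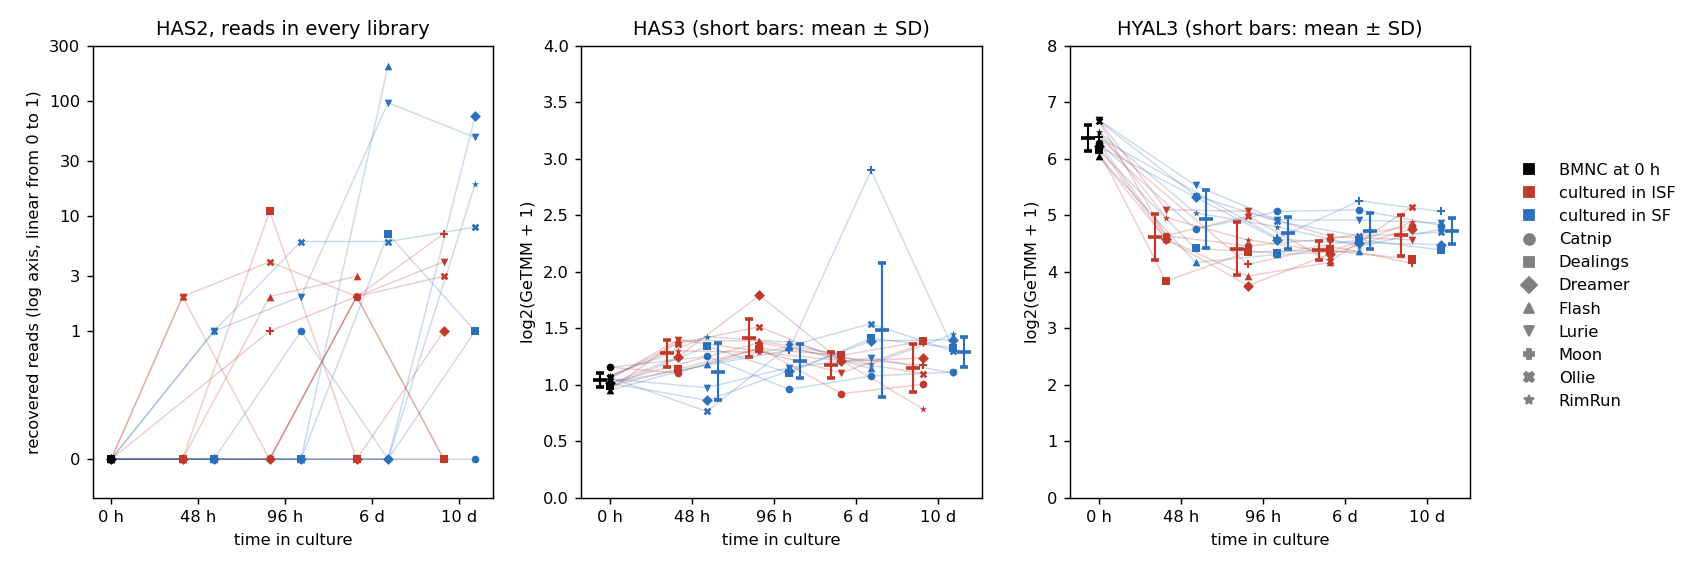
Recovered reads of HAS2 on a log axis that is linear from 0 to 1 (left), and log2(GeTMM + 1) of HAS3 (middle) and HYAL3 (right), against time in culture, with 1 point per library, a marker shape per horse and, for HAS3 and HYAL3, bars for the mean and SD. HAS2 reads reach 202 and 96 in SF libraries of 6 days, HAS3 has 1 high library (Moon, SF, 6 days, 6.44 GeTMM), and HYAL3 steps down once, from a median of 79.5 GeTMM before culture.

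Both receptors, STAB1 and LYVE1, rose steeply on entering culture. STAB1 encodes stabilin-1, a large endocytic receptor of tissue macrophages and sinusoidal endothelium that is counted with the hyaluronan receptors, although its relative STAB2 is the main one for clearance. Before culture it ranged from 2.92 to 7.33 GeTMM with a median of 5.41. At 48 hours it ranged from 11.6 to 128 GeTMM with a median of 82.3 in ISF and from 52.1 to 211 GeTMM with a median of 97.1 in SF. Neither group overlapped with 0 hours, and the log2 fold changes were 3.38 in ISF (SE 0.49, FDR = 3.3e-08) and 4.07 in SF (SE 0.49, FDR = 2.7e-10), called in all 16 alternatives.

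In ISF, STAB1 rose further between 48 and 96 hours in 7 of 7 horses, to a median of 210 GeTMM. The log2 fold change was 1.46 (SE 0.49, FDR = 0.027), but the call was lost without the ISF libraries labelled Dealings and Dreamer at 96 hours (FDR = 0.128), with the groups compared alone (0.0963), and without Catnip (0.0541), Dealings (0.0704), Dreamer (0.1001), Flash (0.0558) or Ollie (0.0958). In SF the change over the same interval was 0.64 (SE 0.49, FDR = 0.367), also upward in 7 of 7 horses. By 6 days the medians were 295 GeTMM in ISF and 236 GeTMM in SF.

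STAB1 did not separate the fluids at any time. The log2 fold changes of ISF over SF were -0.69 (interval of 2 SE, -1.71 to 0.32, FDR = 0.583) after 48 hours, 0.13 (-0.83 to 1.08, FDR = 0.915) after 96 hours, 0.17 (-0.78 to 1.12, FDR = 0.824) after 6 days and -0.09 (-1.11 to 0.92, FDR = 0.927) after 10 days. The intervals come from the fit without a term for horse, so that they also hold the spread between horses. Within horses the difference at 6 days ranged from -0.48 to 1.18 (SD 0.51, n = 8). The intervals do not show that the fluids acted alike, and the values of 96 hours and 10 days changed sign when single horses were left out.

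LYVE1, the hyaluronan receptor named after lymphatic endothelium and also carried by perivascular and other tissue macrophages, went from near absence to high levels in some horses. Before culture it ranged from 0 to 1.22 GeTMM with a median of 0.202, which is 0 to 27 reads. At 48 hours it ranged from 0.749 to 38.6 GeTMM with a median of 29.998 in ISF and from 4.18 to 26.9 GeTMM with a median of 15.0 in SF. It rose in 7 of 7 horses in each fluid, with log2 fold changes of 3.75 in ISF (SE 0.83, FDR = 0.00011) and 3.32 in SF (SE 0.83, FDR = 0.000673), called in all 16 alternatives.

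LYVE1 varied widely between horses. At 6 days in ISF, Flash held 210 GeTMM and Catnip 199, while RimRun held 1.104 and Moon 5.17. In SF at the same time Flash held 98.8 GeTMM, and Moon had no read, where 3 reads would have been worth 0.168 GeTMM. The log2 fold changes of ISF over SF were 0.42 (interval of 2 SE, -1.28 to 2.13, FDR = 0.892) after 48 hours, 1.09 (-0.51 to 2.68, FDR = 0.443) after 96 hours, 1.29 (-0.31 to 2.88, FDR = 0.229) after 6 days and 1.55 (-0.15 to 3.26, FDR = 0.2) after 10 days. LYVE1 was higher in ISF in 4 of 7, 7 of 8, 6 of 8 and 5 of 7 horses in turn, with RimRun lower in ISF each time, and no alternative called any of these differences. From 6 to 10 days its median went from 25.6 to 9.14 GeTMM in ISF (log2 fold change -1.18, SE 0.83, FDR = 0.447). In SF it went from 7.20 to 2.25 GeTMM (-1.44, SE 0.83, FDR = 0.288). The level fell in 4 of 7 horses and rose in 3 in each fluid, and Flash had no library at 10 days.

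**Figure D3:**
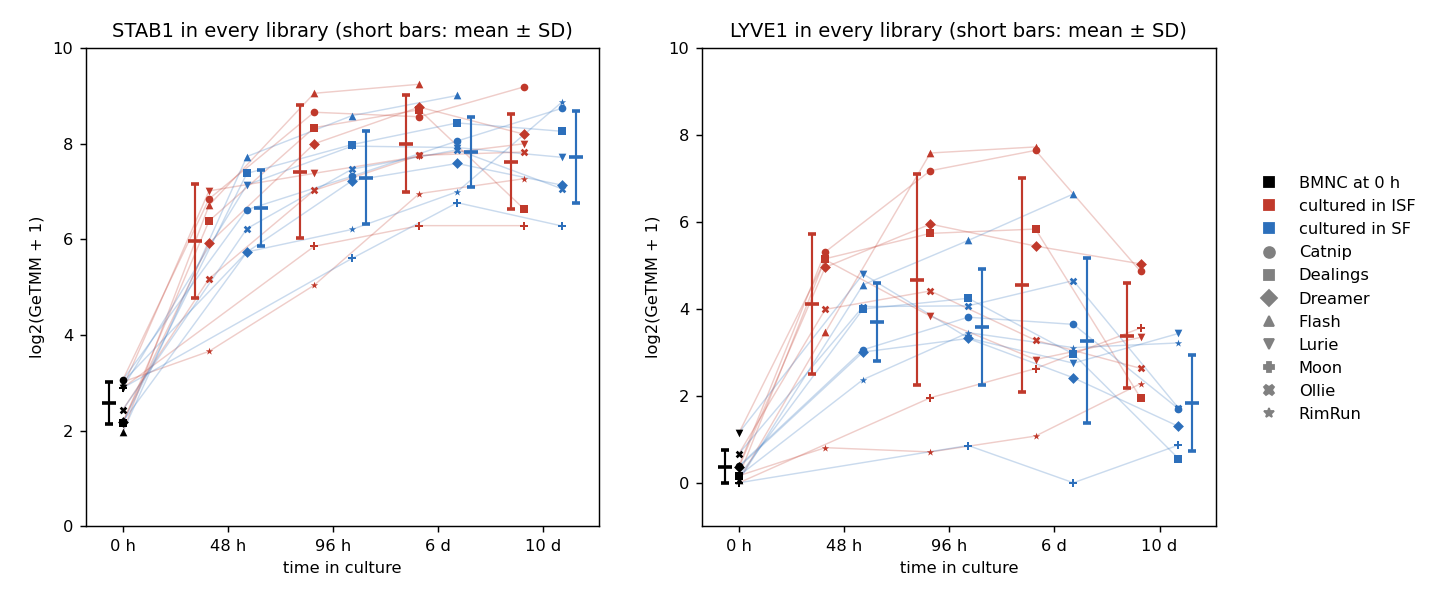
STAB1 (left) and LYVE1 (right) as log2(GeTMM + 1) on the vertical axis against time in culture on the horizontal axis, with 1 point per library, a marker shape per horse, thin lines joining the libraries of a horse, and short bars for the mean and SD. Both rise from 0 to 48 hours in red (ISF) and blue (SF) alike, and Flash has the highest STAB1 and LYVE1 of either fluid at 96 hours and 6 days, while RimRun has the highest STAB1 in SF at 10 days (467 GeTMM).

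A large share of the spread of the receptors lay between horses. Around the group means of the 60 cultured libraries, 67.1% of the sum of squares of STAB1 and 46.8% of that of LYVE1 lay between horses, against a median of 28.0% over all genes tested. The value of STAB1 was at or above those of 98.03% of the genes tested. HYAL3 stood at 45.7%, TNFAIP6 at 29.9% and HAS3 at 18.8%. On average over its cultures, Flash lay 1.94 above the group mean for LYVE1 and 1.197 above it for STAB1 on the log2 scale, and Moon lay 1.90 and 1.47 below. Catnip was also above (1.01 and 0.69) and RimRun below (-1.51 and -0.97) for this pair of genes, whereas for TNFAIP6 the highest horse was Lurie (0.71) and the lowest Dreamer (-0.40).

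The macrophage list moved with the receptors, with a mean of 3.98 before culture and, after 48 hours, of 9.496 in ISF and 8.95 in SF, and its part in their rise was not tested. Of 6 endothelial genes, those most restricted to endothelium were at or near 0, and the others were not. KDR, the VEGF receptor of endothelial cells, was at 0 in 54 of 60 cultured libraries and at most 0.0878 GeTMM, PROX1, which defines lymphatic endothelium, was at most 0.137 GeTMM, and CDH5, the cadherin of endothelial junctions, at most 0.482 GeTMM. VWF, also made by megakaryocytes, reached 1.62 GeTMM. TEK, an angiopoietin receptor that some monocytes also carry, was above 0 in all 60 cultured libraries and reached 7.22 GeTMM, and PECAM1, which leukocytes share with endothelium, reached 137 GeTMM. The part of endothelial cells in the receptor levels was not tested. The average of the 6 endothelial genes ranged from 1.56 to 1.93 before culture, from 1.197 to 1.38 in the ISF libraries of 48 hours and from 1.196 to 1.41 in those of SF.

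Counted over the intervals of the design, 3 of 5 genes of interest were called from 0 to 48 hours in ISF and the same number in SF (STAB1 and LYVE1 up, HYAL3 down in each), against 52.7% and 45.4% of all genes. From 48 to 96 hours 2 of 5 were called in ISF against 19% of all genes, and 0 of 5 in SF against 27.3%. TNFAIP6 left aside, 0 of 4 were called from 96 hours to 6 days in ISF (6.38% of all genes) and SF (2.05%), and 0 of 4 from 6 to 10 days in ISF (10.5%) and SF (4.78%). In these intervals without a call, the one unadjusted limma p under 0.05 was that of HAS3 in SF from 96 hours to 6 days, and voom on the recovered reads also called none.

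Between fluids at 6 days, again without TNFAIP6, 0 of 4 genes were called higher in ISF against 16.7% of all genes and 0 of 4 lower against 13.6%, with unadjusted limma p under 0.05 for 2 of them (HAS3 and HYAL3) and no call by voom. The changes of the difference between fluids called 0 of 5 genes from 48 to 96 hours (0.0206% of all genes), 0 of 4 from 96 hours to 6 days (0% of all genes), 0 of 4 from 6 to 10 days (0.226%) and 0 of 5 from 48 hours to 10 days (2.99%). Unadjusted limma p values under 0.05 were those of TNFAIP6 in the earliest and HAS3 in the next of these intervals, and voom called none.

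A wider list of genes for making precursors of hyaluronan, cutting it, sensing it, and for binding it or for matrix proteins listed with the binders, showed where else the fluids differed. Of its 37 genes, 33 were matched and 22 could be tested. None was called at 48 hours, by limma or by limma voom, although 5 had an unadjusted limma p under 0.05. At 96 hours 4 were called higher in ISF (18.2% of the list, against 6.16% of all genes) and 3 lower (13.6% against 4.3%). At 6 days 11 were called higher (50% against 16.7%) and 7 lower (31.8% against 13.6%), and at 10 days 9 higher (40.9% against 9.95%) and 2 lower (9.09% against 10.8%). The median log2 fold change of the 22 genes was 0.22, 0.15, 0.27 and 0.33 at the 4 times, beside -0.02, -0.00, 0.00 and -0.02 over all genes. With the groups compared alone, 11, 9 and 7 genes of the list were called in turn, beside 18.4%, 13.7% and 20.4% of all genes. Without the ISF libraries labelled Dealings and Dreamer 3 were called at 96 hours, beside 6.18% of all genes. At 10 days 7 were called without Catnip, without Dealings or without Dreamer, beside 15.8%, 13.3% and 15.1% of all genes.

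Among genes that cut hyaluronan outside the HYAL family, CEMIP and CEMIP2 were called higher in ISF from 96 hours on. The direction was not shared by this part of the list. Of its 4 genes tested, 2 were called higher at 6 days (16.7% of all genes) and 2 lower (13.6%). CEMIP, a hyaluronan-binding protein needed for depolymerization by fibroblasts, went from 1.51 ± 1.74 GeTMM in SF to 46.8 ± 40.9 in ISF at 6 days (SD, n = 8 each), a log2 fold change of 3.87 (SE 0.58, FDR = 3.99e-07). It was also called at 10 days (2.77, SE 0.62, FDR = 0.000628) and at 96 hours (1.90, SE 0.58, FDR = 0.0238), where the call was lost without Catnip (FDR = 0.0710), without Ollie (0.0836) and without the libraries labelled Dealings and Dreamer (0.0774). At 10 days CEMIP ranged from 3.84 to 59.0 GeTMM in ISF (median 30.6) and from 1.13 to 90.7 in SF (median 1.31). The highest SF library was thus above every ISF library at that time. Its relative CEMIP2, a cell-surface protein, was at 29.1 ± 8.19 GeTMM in ISF and 9.66 ± 4.18 in SF at 6 days (log2 fold change 1.64, SE 0.24, FDR = 1.89e-07), and differed by 1.13 at 96 hours (SE 0.24, FDR = 0.000624). Its difference of 0.70 at 10 days (SE 0.25, FDR = 0.0401) was lost in 9 of 16 alternatives, with an FDR of up to 0.157 without Catnip.

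Among the binding, matrix and sensing genes, VCAN, the versican core protein that docks on hyaluronan, held 203 ± 97.7 GeTMM in ISF and 39.3 ± 18.3 in SF at 6 days (log2 fold change 2.41, SE 0.39, FDR = 1.80e-06) and differed by 1.72 at 10 days (SE 0.41, FDR = 0.00156). LAYN, the layilin receptor, was called lower in ISF at 96 hours (-1.29, SE 0.25, FDR = 0.000196), 6 days (-1.33, SE 0.25, FDR = 3.01e-05) and 10 days (-1.22, SE 0.27, FDR = 0.000486). It was 1 of 4 receptors of the wider list that were tested. Of the 4, 3 were called higher in ISF at 6 days (16.7% of all genes) and 2 at 10 days (9.95%), and none at 96 hours. THBS1, the matrix protein thrombospondin-1, was lower in ISF at 96 hours, at 6.54 ± 4.12 GeTMM against 36.0 ± 26.6 (-2.17, SE 0.58, FDR = 0.00816).

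For the sugar precursors, GFPT1, which opens the hexosamine pathway, was higher in ISF at 10 days (47.3 ± 14.5 against 20.1 ± 2.58 GeTMM, SD over 7 libraries in each fluid), with a log2 fold change of 1.15 (SE 0.13, FDR = 2.39e-09). Its difference of 0.40 at 96 hours (SE 0.12, FDR = 0.0246) was lost without Dreamer (FDR = 0.0787), Flash (0.0784), Lurie (0.0980) or Ollie (0.0586), and without the libraries labelled Dealings and Dreamer (0.0531). At 6 days 3 of the 6 tested precursor genes were called higher in ISF (16.7% of all genes) and 2 lower (13.6%). GFPT1 was among the higher (0.75, SE 0.12, FDR = 2.80e-06). UGP2, which makes UDP-glucose, was lower in ISF at 6 days (-0.68, SE 0.21, FDR = 0.00887), a call that ended without Ollie (FDR = 0.0575) and with the groups compared alone (0.0576).

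TNFAIP6 takes its name from TNF, and a list of 15 genes that respond to TNF or IL-1 or carry their signal was read beside it. All 15 were tested. The list showed 0 calls at 48 hours by limma or voom, with 2 unadjusted limma p values under 0.05, then 1 higher in ISF at 96 hours (6.67% of the list, against 6.16% of all genes), 4 higher at 6 days (26.7% against 16.7%), and 1 higher and 1 lower at 10 days (6.67% each, against 9.95% and 10.8%). The shares at 96 hours and 10 days were near or under those of all genes. Its median log2 fold change was -0.02, 0.11, 0.19 and 0.06 in turn. With the groups compared alone 2 were called at 96 hours, and without Dealings 1 at 10 days.

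ICAM1, an adhesion molecule, was at 59.97 ± 18.3 GeTMM in ISF and 27.0 ± 6.63 in SF at 96 hours (log2 fold change 1.095, SE 0.20, FDR = 8.2e-05) and differed by 1.07 at 6 days (SE 0.20, FDR = 2.43e-05). TNF itself was at 12.6 ± 4.33 GeTMM in ISF and 4.13 ± 0.684 in SF at 6 days (1.36, SE 0.23, FDR = 3.55e-06). It was not called at 48 hours (FDR = 0.903), 96 hours (0.179) or 10 days (0.122). The fit used here called neither IL1A nor IL1B at any time. At 6 days their log2 fold changes were 0.36 (SE 0.16, FDR = 0.0821) for IL1A and -0.40 (SE 0.31, FDR = 0.350) for IL1B. At that time 11 of the 15 listed genes were not called. What part TNF had in the TNFAIP6 level was not tested. CXCL8, the neutrophil chemokine, was higher in ISF at 6 days (2.42, SE 0.45, FDR = 2.76e-05) and 10 days (2.81, SE 0.48, FDR = 1.28e-05). IL1R1, the IL-1 receptor, was lower in ISF at 10 days (-1.0006, SE 0.31, FDR = 0.0135), and this call ended without Dealings (FDR = 0.0613) or Lurie (0.0616).

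**Figure D4:**
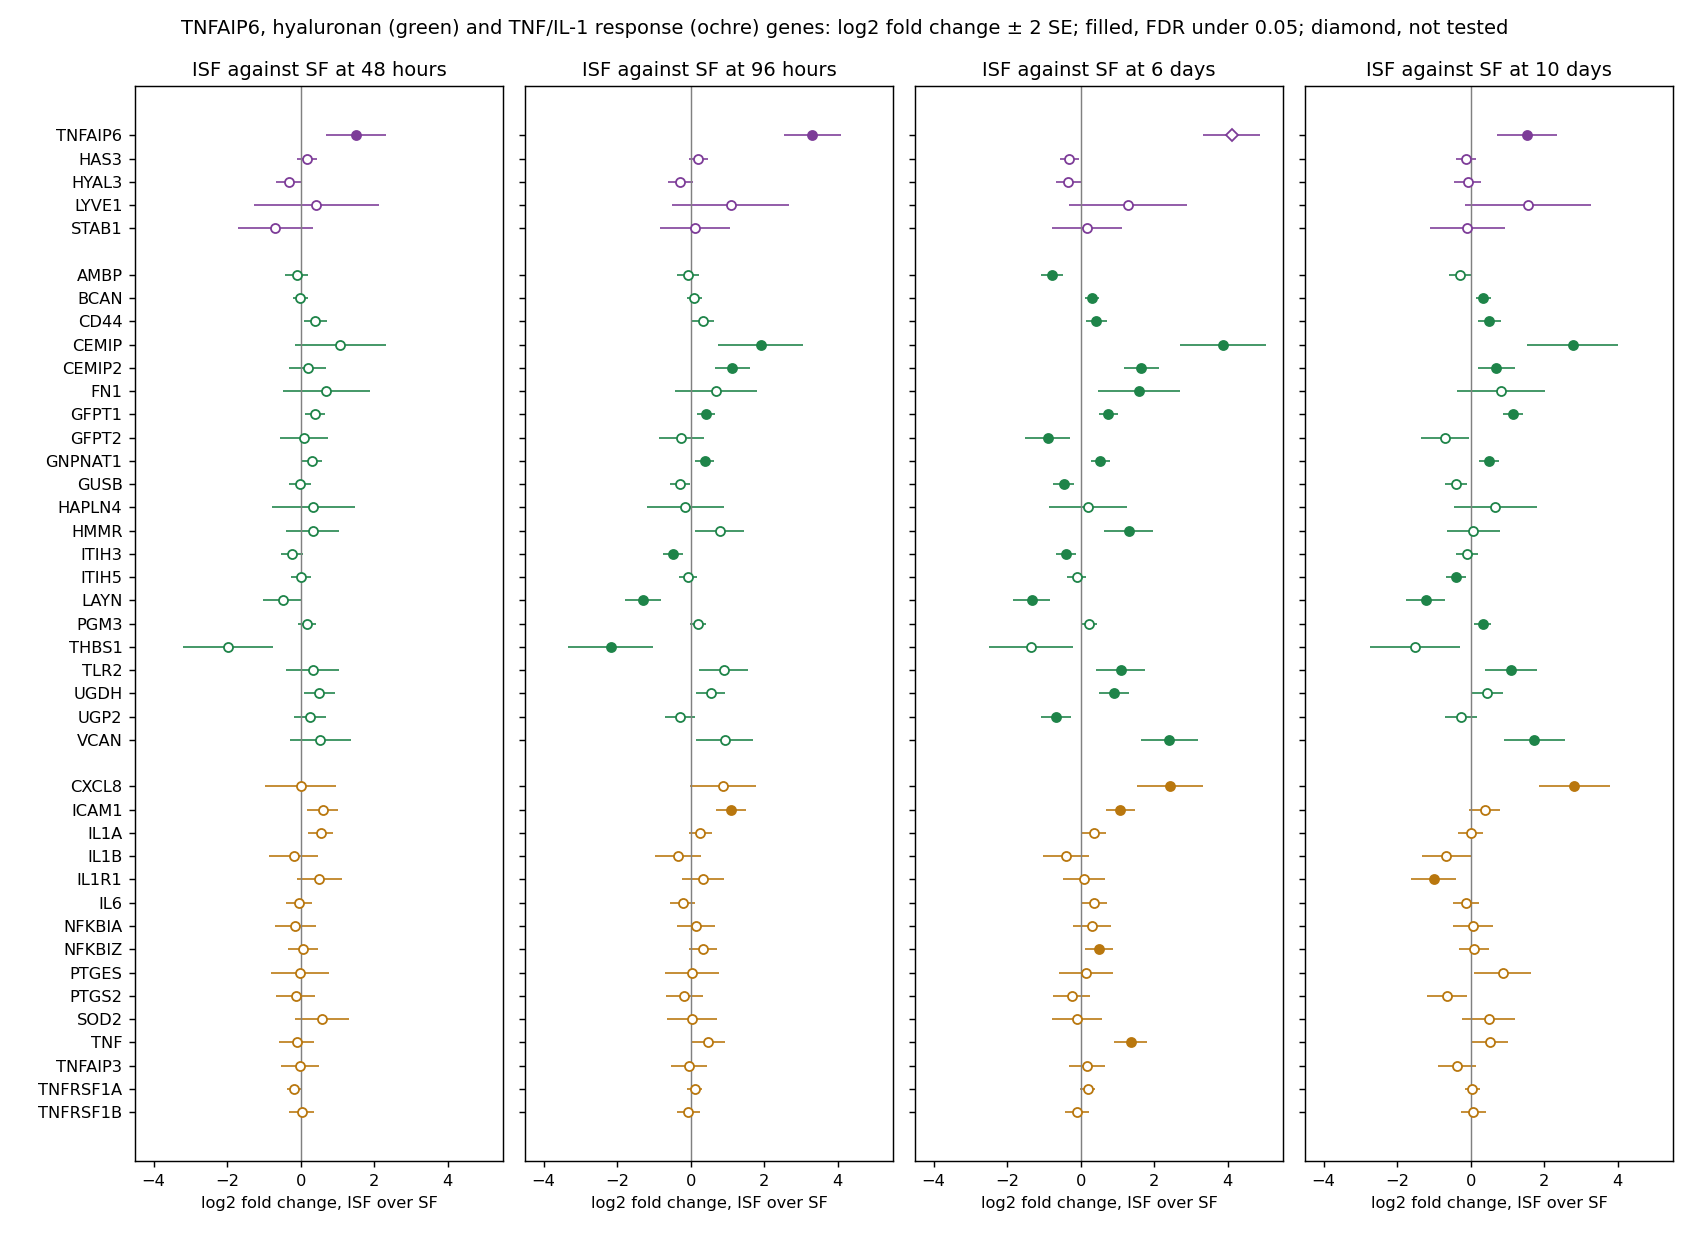
Log2 fold change of ISF over SF (horizontal axis) with bars of 2 SE for the tested genes of interest (purple), genes of the wider hyaluronan list (green) and the TNF and IL-1 list (ochre) in a panel for each of the 4 times. Filled circles passed an FDR of 0.05 and the open diamond marks TNFAIP6 at 6 days, which was not tested. TNFAIP6 stands at 3.31 at 96 hours and 4.10 at 6 days, CEMIP at 3.87 at 6 days, and the bars of STAB1 and LYVE1 cross 0 at every time.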

How the data were processed

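RNA of 68 libraries was sequenced and, per the study's methods, aligned by the authors with STAR 2.7.2a against the EquCab 3.0 genome, with reads summed over each gene. The values deposited by the authors are GeTMM, a unit like RPKM in which read counts are divided by gene length before TMM normalization. The strand setting of the counting is not given in the sources used here. Genes that reached 0.5 GeTMM in 7 or more libraries (14570 of 30371 rows) were tested on log2(GeTMM + 1) with limma 3.58.1 in R 4.3.3 (moderated test with trend, 1 fit over the 9 groups, 2-sided, Benjamini-Hochberg FDR under 0.05 over all genes tested). A fold change on this scale understates that of low genes. Summaries used Python 3.11.15, numpy 2.4.6 and pandas 2.3.3.

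Whole reads, within a tolerance of 0.02, were recovered for 24065 of 24065 genes above 0 and used for depth, for floors of 3 reads and for an alternative with voom, which called 174, 1532, 4287 and 2920 genes between fluids at the 4 times against 245, 1524, 4405 and 3027 by the fit used here. The floors cover counting error only.

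At each time the same horses stood in both fluids, but Moon was missing at 48 hours and Flash at 10 days. Medians and log2 fold changes between times that involve these groups therefore compare sets of horses that are not the same. ISF and SF libraries of a horse deviated together in 26 of 30 pairs (correlation over 0.1, median 0.36), the exceptions being Dealings and Dreamer at 96 hours and Lurie and Ollie at 10 days, and a fit with the horse as a block was run as an alternative. Groups and horses come from the sample labels. 2 SE on either side of a log2 fold change, from the fit without a term for horse, is given as its interval.

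The genes of interest and the gene lists were chosen with earlier results of these data known. Genes of the wider lists are named by a rule: at most 3 in each direction per time, among those called with a mean of at least 5 GeTMM in 1 fluid. IL1A and IL1B are named outside this rule. A gene of the wider hyaluronan list that enters its counts is not reported here. The 15 alternatives beside voom were a pseudocount of 0.1, no filter, median ratio scaling, the block, a fit of only the groups compared, leaving out the SF library of Moon at 6 days, leaving out the 96-hour ISF libraries labelled Dealings and Dreamer, and leaving out each of the 8 horses. Coordinates and sequences are not given, since the reference used here is of another build.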

Additional observations from a re-analysis of the deposited data

Results flagged for a closer look

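Within groups of 7 or 8 libraries, 7 of 53 combinations of gene and group held a library set apart from the rest by a gap that exceeds the 95% limit for an outlier. Chance gives about 1 in 20 for independent, normally distributed values. The combinations share libraries and the HAS2 groups hold many zeros, so that the count of 7 cannot be judged against that rate. TNFAIP6 in Catnip was 372 GeTMM in ISF at 6 days, above the other 7 libraries. HAS3 in Moon was 6.44 GeTMM in SF at 6 days, on 335 reads, in the library with the lowest median ratio factor. HAS3 was also high in the ISF library labelled Dreamer at 96 hours (2.46 GeTMM) and low in Catnip in ISF at 6 days (0.893 GeTMM). HYAL3 was low in Dealings in ISF at 48 hours (13.3 GeTMM), and LYVE1 was low in RimRun in the same group (0.749 GeTMM). HAS2 in Ollie in SF at 96 hours was 0.141 GeTMM, which is 6 reads. What set these libraries apart was not tested.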

How the results depend on the processing

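Each result was computed under 16 alternatives. Of the 5 genes of interest that were tested, the 1 call between fluids at 48 hours (TNFAIP6) became 0 without the filter and 0 with voom on recovered reads, and ranged from 0 to 1 when each horse was left out. At 6 days, where 0 was called without TNFAIP6, 1 was called with the horse as a block, the replicate block of the pairing (HYAL3), and 0 to 1 with each horse left out (HAS3 without Flash). Without the filter HAS2, which is not among the 5, also entered and was called (log2 fold change -0.50, FDR = 0.0457). It was lower in ISF in 4 of 8 horses and higher in 3, and most of its 6-day reads sat in the SF libraries of Flash (202) and Lurie (96). The 2 calls from 48 to 96 hours in ISF became 1 with the groups compared alone and 1 without the ISF libraries labelled Dealings and Dreamer, and ranged from 1 to 2 with each horse left out (STAB1 was lost each time). The block also called the narrowing of the TNFAIP6 difference from 96 hours to 10 days and changed no other call for these genes. At 48 hours, where none of the wider hyaluronan list was called, 1 was called with the block, 2 without the 6-day SF library of Moon and 2 without Moon, and 1 gene of the TNF and IL-1 list was called without that library or without Catnip. Signs changed only for differences that were never called: STAB1 at 96 hours was -0.12 without the libraries labelled Dealings and Dreamer and ranged from -0.048 to 0.31 with each horse left out, STAB1 at 10 days ranged from -0.29 to 0.16 and HYAL3 at 10 days from -0.16 to 0.064. Of 1024 values for single genes and lists under the alternatives, 970 kept their direction and side of the threshold (for list counts, stayed within 1.5 times). Where a fit used fewer samples or fewer genes its power also differed, and otherwise the cause was not tested. Depth limits HAS2 and LYVE1 before culture: a library with 0 reads of HAS2 allowed up to 0.0432 to 0.125 GeTMM.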

Other observations

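Of the wider hyaluronan list, 11 genes were matched but too low to test. STAB2, the clearance receptor of sinusoidal endothelium, ranged from 0.275 to 0.853 GeTMM before culture and was at most 0.0450 GeTMM in the cultures, with 0 reads in 31 of 60. ITIH1, a heavy chain of the kind TSG-6 transfers, ranged from 0.349 to 0.840 GeTMM before culture and was at most 0.319 afterwards, and ITIH2 was at most 0.382 GeTMM anywhere. TLR4, a receptor for lipopolysaccharide that is also named as a sensor of hyaluronan fragments, was listed at 0 in 66 of 68 libraries, although monocytes and macrophages carry it and TLR2 held 57.0 GeTMM on average in ISF at 6 days. Whether the gene model of TLR4 or the counting keeps its reads out of the table was not tested, and this gene was singled out after its values were seen. No level of TLR4 is drawn from these values.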
